A study of Mus musculus with 22 samples.

Results

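The genes described here are 7 globins and 2 further red cell genes, read in the trachea of mouse embryos at E11.5 and E13.5. The 9 were fixed by name out of 26202 gene symbols in the count table, with earlier results of these data known, and all 9 were present. The embryonic globins are Hba-x, Hbb-y and Hbb-bh1, the adult globins are Hba-a1, Hba-a2, Hbb-bs and Hbb-bt, and the other red cell genes are Alas2 and Slc4a1. Levels are given as CPM, the count of a gene scaled to the total count of its library, and 18 libraries in 6 groups could be tied to a group of samples.

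Whole tracheas were taken at E11.5 from controls of genotype Wnt5a f/f (n = 5) and from mutants of genotype Dermo1Cre; Wnt5a f/f (n = 4), each sample pooling 5 tracheas. Dermo1Cre is a Cre recombinase of the mesenchyme, so the epithelium keeps the floxed gene in the mutants, and controls and mutants alike carry the floxed Wnt5a alleles. At E13.5, cells were sorted from pools of 5 tracheas of a litter, all of which carried the gamma SMA eGFP reporter, which marks muscle. EpCAM-stained cells gave epithelium (n = 2), GFP+ cells gave muscle (n = 2), and cells negative for both gave the population called chondroblasts, from controls (n = 2) and from Notum mutants of genotype Notum 150/150; gamma SMA eGFP, homozygous for an allele without function (n = 3). The sorted controls were of genotype Bmp4 f/f; gamma SMA eGFP or Notum 300/300; gamma SMA eGFP, and the table does not say which library is which. No Cre is named for the sorted groups. The double-negative gate has no marker of its own, and no red cell or white cell marker was stained, so blood cells that pass the size gate can enter it.

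The libraries held 6880660 to 21678177 counts. Column names of the sorted libraries carried 1 of 2 dates: each control population had 1 library of the earlier and 1 of the later date, and all 3 Notum mutant libraries were of the later date. Among the sorted libraries, each population was highest in its own markers. Epcam was at 532 and 877 CPM in epithelium against at most 4.31 CPM in the other sorted libraries. In muscle, 5 smooth muscle genes summed to 9571 to 12364 CPM. In chondroblasts, 5 cartilage genes summed to 1928 to 3308 CPM. The same cartilage genes summed to 623 CPM in the earlier and 1464 CPM in the later muscle library, and to 277 and 371 CPM in epithelium. The targeted transcripts were still counted in the mutants: Wnt5a at 45.9 to 130 CPM against 58.0 to 158 CPM in its controls, and Notum at 14.2 to 35.9 CPM against 12.5 and 85.2 CPM.

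In the mouse embryo the first red cells come from the yolk sac and circulate with nuclei, and their hemoglobin contains embryonic chains. Definitive red cells, made next in the fetal liver, use adult chains. Each hemoglobin holds alpha-like and beta-like chains. The alpha-like genes lie in 1 cluster on chromosome 11, with Hba-x for the embryonic zeta chain and Hba-a1 and Hba-a2 for the adult alpha chain. The beta-like genes lie in another on chromosome 7, with Hbb-y (epsilon y) and Hbb-bh1 (beta h1) as embryonic genes and Hbb-bs and Hbb-bt as adult genes. Within primitive cells beta h1 is used earlier than epsilon y. Alas2 makes the first enzyme of heme synthesis in red cells, and Slc4a1 makes band 3, the anion exchanger of the red cell membrane.

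In genome build GRCm38, Hba-x lay at chr11:32276600-32278116, Hba-a1 at chr11:32283672-32284486 and Hba-a2 at chr11:32296492-32297310. The beta cluster ran through Hbb-bt at chr7:103812524-103813923, Hbb-bs at chr7:103826523-103827928, Hbb-bh1 at chr7:103841638-103843162 and Hbb-y at chr7:103851754-103853207. Alas2 lay at chrX:150547417-150570622 and Slc4a1 at chr11:102348820-102365281. The 150 bases just before the annotated transcript start (RefSeq, GRCm38.p6) are printed for 7 genes, since these windows let the embryonic and adult genes be set side by side letter by letter. Capitals mark 4 short motifs, each searched on both strands: the letters CACCC, a box of many globin promoters; the letters GATA, the core of GATA factor sites; the CAAT box, searched as CCAAT; and the TATA box, searched as TATAAA. Adjacent matches run together in capitals. The windows are Hba-x (chr11:32276450-32276599, + strand), Hba-a1 (chr11:32283522-32283671, + strand), Hba-a2 (chr11:32296342-32296491, + strand), Hbb-y (chr7:103853208-103853357, - strand), Hbb-bs (chr7:103827929-103828078, - strand), Hbb-bt (chr7:103813924-103814073, - strand) and Alas2 (chrX:150547267-150547416, + strand).
Hba-x: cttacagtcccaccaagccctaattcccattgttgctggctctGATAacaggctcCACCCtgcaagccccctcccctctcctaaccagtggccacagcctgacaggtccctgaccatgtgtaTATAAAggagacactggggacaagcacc
Hba-a1: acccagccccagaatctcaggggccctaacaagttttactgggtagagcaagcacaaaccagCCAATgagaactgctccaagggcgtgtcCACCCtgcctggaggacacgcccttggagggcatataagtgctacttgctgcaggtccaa
Hba-a2: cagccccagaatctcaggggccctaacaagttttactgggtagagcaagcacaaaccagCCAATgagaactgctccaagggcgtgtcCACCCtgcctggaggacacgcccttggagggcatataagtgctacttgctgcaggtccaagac
Hbb-y: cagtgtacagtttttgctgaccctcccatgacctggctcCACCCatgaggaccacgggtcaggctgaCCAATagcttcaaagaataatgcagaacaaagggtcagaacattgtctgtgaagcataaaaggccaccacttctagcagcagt
Hbb-bs: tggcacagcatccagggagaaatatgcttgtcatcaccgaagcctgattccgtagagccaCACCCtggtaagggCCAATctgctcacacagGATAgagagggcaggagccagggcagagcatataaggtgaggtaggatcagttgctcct
Hbb-bt: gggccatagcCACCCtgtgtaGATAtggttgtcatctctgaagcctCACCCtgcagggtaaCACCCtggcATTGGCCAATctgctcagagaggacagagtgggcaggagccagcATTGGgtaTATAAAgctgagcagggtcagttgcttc
Alas2: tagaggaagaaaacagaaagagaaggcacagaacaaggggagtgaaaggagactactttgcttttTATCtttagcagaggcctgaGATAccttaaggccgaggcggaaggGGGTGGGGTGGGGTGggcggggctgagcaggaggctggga

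The windows cover 2 embryonic globins, 4 adult globins and Alas2. CACCC stood in all 7, against 37.4% of 32851 windows of this length. CCAAT stood in the 4 adult globin windows and in 1 of the 2 embryonic ones (Hbb-y) against 24.5%, GATA in 4 of 7 (Hba-x, Hbb-bs, Hbb-bt and Alas2) against 35.7%, and TATAAA in 2 of 7 (Hba-x and Hbb-bt) against 7.57%. The Hba-a1 and Hba-a2 windows shared a run of 147 bases, while Hbb-bs and Hbb-bt shared at most 14. The transcripts of these pairs also overlap: 67.5% of the 50-base stretches of Hba-a1 were found in Hba-a2, and 65.8% of those of Hbb-bs in Hbb-bt, and no other pair of globins shared any. The split of counts inside each pair is therefore uncertain, and the pairs were also summed. The table also listed Hbb-b1 and Hbb-b2, the adult beta genes of the other mouse haplotype. Hbb-b2 had the same count as Hbb-bt in every library, and Hbb-b1 was 1.80 to 2.68 times Hbb-bs in the 17 libraries with enough counts for a ratio. These entries were therefore left out of the sums, except where they are named.

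Globins were found in all 18 libraries, but over a very wide range. The 7 globins together took 0.334% to 2.22% of all counts in the 9 E11.5 tracheas and 0.769% to 7.16% in the 5 chondroblast libraries. In muscle they took 0.00117% in the earlier and 0.335% in the later library, and in epithelium 0.00166% and 0.0567%. The chondroblast library of the earlier date stood far above the rest, at 71574 CPM, and the later control and the 3 mutants lay between 7693 and 10666 CPM. Such levels come from bulk RNA, in which fewer red cells and less globin RNA per red cell cannot be told apart.

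**Figure D1:**
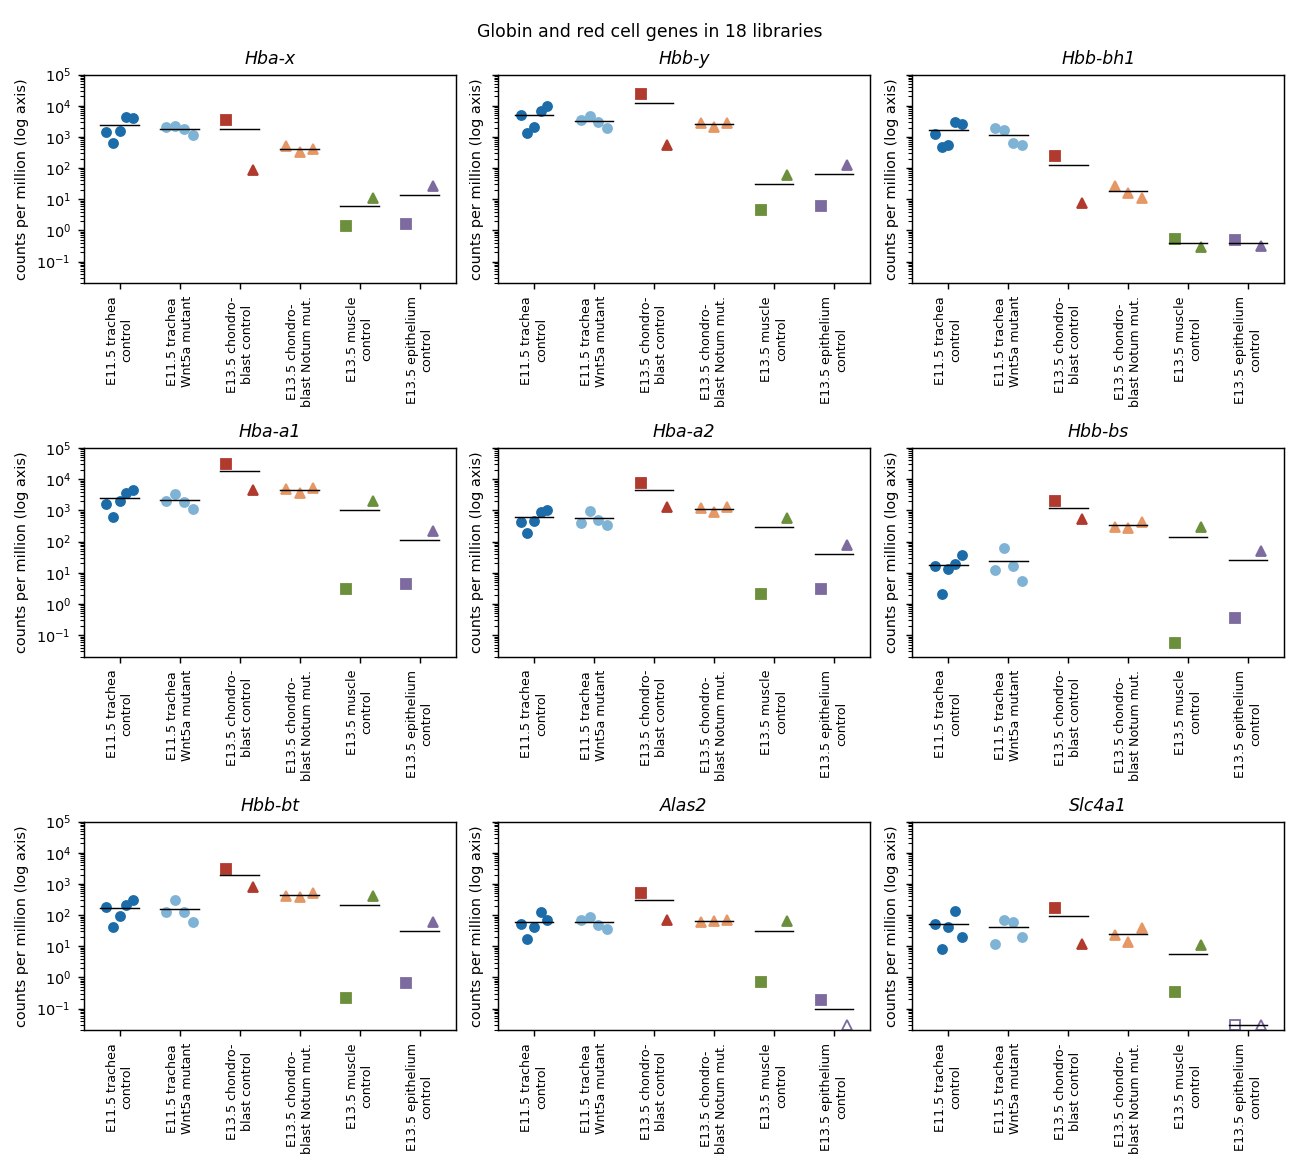
Level of each of the 9 genes in 18 libraries, in CPM on a log axis, by group. Circles are E11.5 tracheas, squares sorted libraries of the earlier date and triangles those of the later date, black lines are group means, and open symbols at the foot of the axis are libraries with 0 counts. The earlier control chondroblast library is the highest or among the highest for every gene except Hbb-bh1, which lies between 464 and 3077 CPM in all E11.5 tracheas and at no more than 247 CPM in every sorted library.

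Which globins made up this RNA differed between the stages. The embryonic genes Hba-x, Hbb-y and Hbb-bh1 held 62.3% to 77.9% of the globin counts in the 9 E11.5 tracheas, and 8.04% to 39.0% in the 5 E13.5 chondroblast libraries. Every tracheal library therefore carried more embryonic than adult globin counts, and every chondroblast library more adult than embryonic. The log2 ratio of embryonic to adult counts was 1.82, 1.52, 0.73, 1.59 and 1.503 in Wnt5a f/f controls A to E, and 1.53, 0.85, 1.10 and 1.21 in mutants A to D. In chondroblasts it was -0.65 and -3.52 in the earlier and later controls, and -0.97, -1.09 and -1.24 in the 3 Notum mutants. The stages did not overlap.

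**Figure D2:**
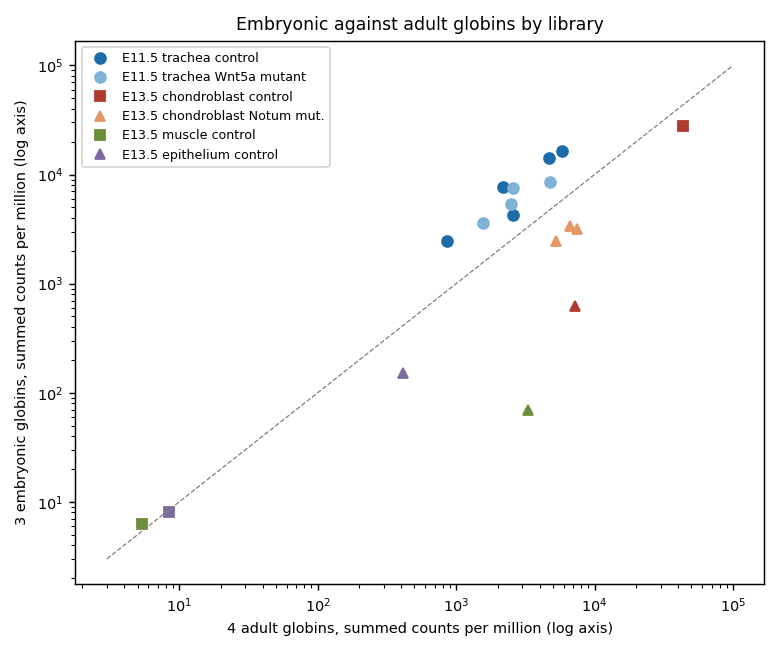
Summed embryonic globins against summed adult globins, 1 symbol per library, in CPM on log axes, with the dashed line where both are equal. Colour gives the group; circles are E11.5 tracheas, squares sorted libraries of the earlier date and triangles those of the later date. All 9 E11.5 tracheas lie above the line and all 5 chondroblast libraries below it.

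Averaged over libraries, the ratio was 1.32 ± 0.37 on the log2 scale at E11.5 (SD, n = 9) and -1.49 ± 1.15 in E13.5 chondroblasts (SD, n = 5), 7.02-fold lower (difference -2.81; two-sided exact permutation test, p = 0.000999, adjusted over 4 ratios 0.000999). The alpha side, Hba-x over Hba-a1 and Hba-a2, fell from -0.44 ± 0.24 to -4.19 ± 1.08, a 13.4-fold lower ratio with the same exact p of 0.000999. The beta side, Hbb-bh1 and Hbb-y over Hbb-bs and Hbb-bt, fell from 4.99 ± 0.45 to 1.26 ± 1.44, which was 13.2-fold lower, again at an exact p of 0.000999. That value is the smallest that 5 against 9 libraries can give. The test pooled control and mutant libraries within each stage and took every library as independent. It did not use the dates, nor the column numbers that some control and mutant tracheas share. Both clusters thus showed the difference, at different levels: at E11.5 the alpha cluster already gave more adult than embryonic counts in all 9 libraries, while the beta cluster gave 16.7 to 43.4 embryonic counts per adult count, or 7.80 to 20.96 with the Hbb-b1 and Hbb-b2 entries added to the adult side.

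Inside the embryonic beta genes the ratio differed most. Hbb-bh1 stood at 0.221 to 0.530 of Hbb-y in E11.5 tracheas. In chondroblasts the log2 ratio of Hbb-bh1 to Hbb-y was -6.61 and -6.08 in the controls and -6.70, -7.09 and -7.94 in the Notum mutants, with no overlap with the range of -2.18 to -0.92 at E11.5. The mean was 37.5-fold lower at E13.5 (difference -5.23 on the log2 scale; exact permutation test, p = 0.000999, n = 5 and 9). The later control chondroblast library, whose embryonic share was the lowest of the 5, had the highest Hbb-bh1 to Hbb-y ratio of the 5.

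Stage, tissue and date could not be told apart in these ratios, since whole trachea was sequenced only at E11.5 and sorted cells only at E13.5. With controls alone, 2 chondroblast against 5 tracheal libraries, the differences were -3.51, -4.35, -4.62 and -4.64 on the log2 scale for the 4 ratios in the order given, and p was 0.0952, which is the smallest that this design allows.

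**Figure D3:**
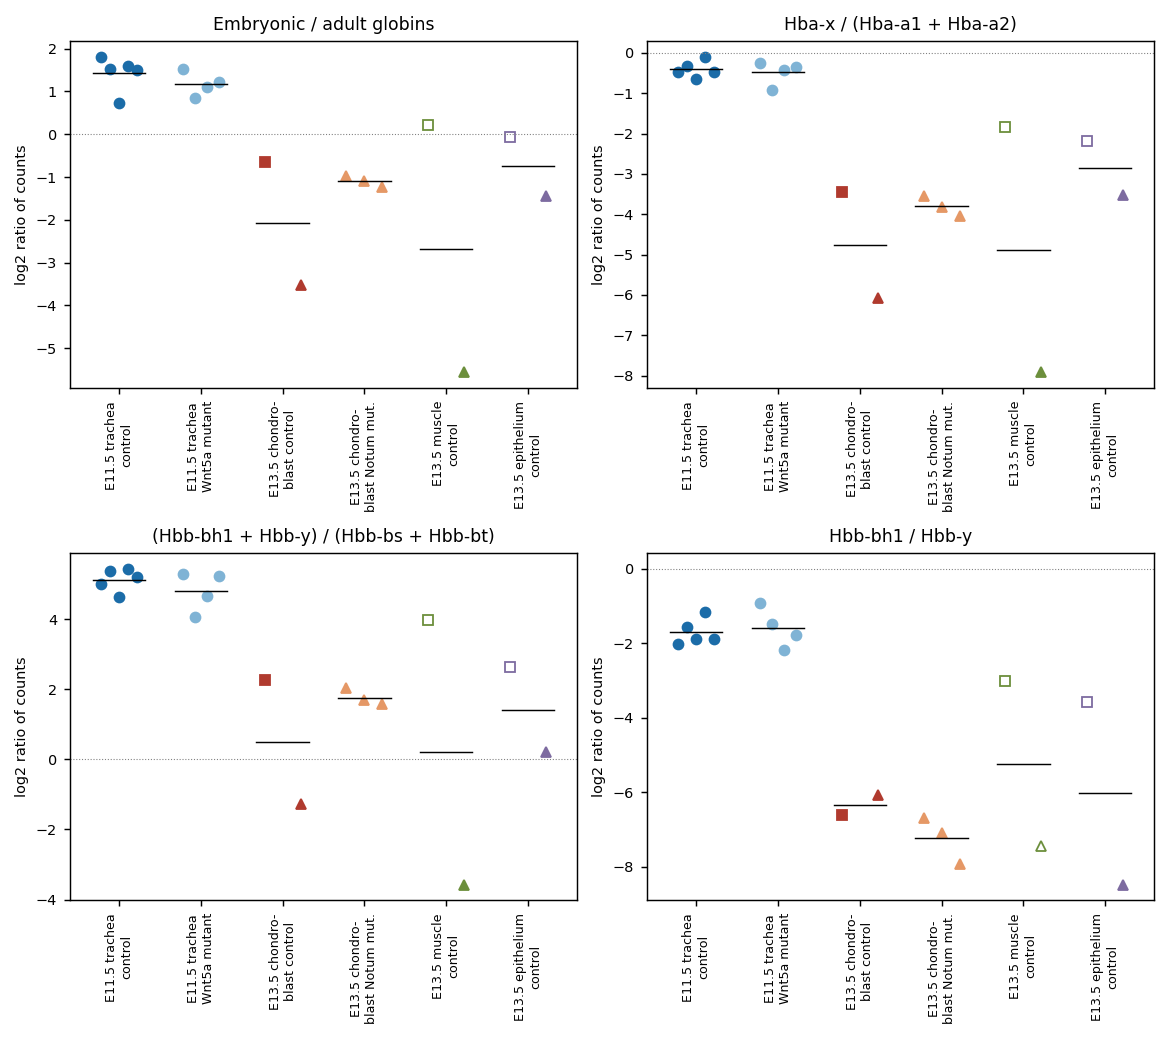
Log2 ratios of counts by group, for embryonic to adult globins, the alpha side, the beta side and Hbb-bh1 to Hbb-y. Circles are E11.5 tracheas, squares and triangles sorted libraries of the earlier and later date, open symbols are ratios resting on under 1000 counts, and black lines are means. In each panel the 9 tracheal libraries lie above the 5 chondroblast libraries.

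Few globin counts were found in the earlier muscle and epithelium libraries. The ratios of both populations were read only as values, since sorts of the same date may come from the same tracheas. The later muscle library had a log2 embryonic to adult ratio of -5.57 on 55132 globin counts, the lowest of the 18, and the later epithelium library -1.43 on 8841 counts. The earlier libraries had 0.22 on 206 counts in muscle and -0.06 on 341 counts in epithelium. On the later date, the control chondroblast and muscle libraries had a low embryonic share, 8.04% and 2.06%, against 27.0% in epithelium. The Notum mutant chondroblasts of the same date had 33.8%, 31.9% and 29.7%.

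Hbb-y, the epsilon y gene, had the highest embryonic level. It was found at 5043, 1363, 2119, 6905 and 9825 CPM in E11.5 controls A to E and at 3543, 4598, 2936 and 1885 CPM in Wnt5a mutants A to D. In chondroblasts it was found at 24089 CPM in the earlier and 534 CPM in the later control, and at 2842, 2113 and 2764 CPM in the Notum mutants. The 2 controls thus lay on either side of the mutants and of all the tracheas. Hba-x, the zeta gene, had 649 to 4197 CPM with a median of 1767 CPM over the tracheas. Its chondroblast values were 3559 and 87.9 CPM in the controls and 501, 326 and 396 CPM in the mutants, so that 4 of the 5 lay under the lowest trachea. Hbb-bh1, the gene used earliest, had 464 to 3077 CPM with a median of 1231 CPM in tracheas, against 247 and 7.84 CPM in control chondroblasts and 27.4, 15.5 and 11.2 CPM in mutants. The 2 stages were apart for this gene alone among the 3, and the share of all genes apart in this way was not counted.

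Of the adult genes, Hba-a1 had the highest level, at 1581, 634, 1988, 3590 and 4381 CPM in E11.5 controls and 2040, 3412, 1852 and 1136 CPM in Wnt5a mutants. In chondroblasts it reached 31052 and 4600 CPM in controls and 4747, 3687 and 5298 CPM in mutants. Its range in tracheas ended inside that of the chondroblasts, although all 5 chondroblast values lay above 8 of the 9 tracheal ones. Hba-a2 followed it at 184 to 1067 CPM in tracheas (median 467 CPM) and at 7608, 1309, 1166, 888 and 1264 CPM in chondroblasts, controls first. Hba-a1 held 3.24 to 4.99 counts for each Hba-a2 count at E11.5.

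The adult beta genes were low at E11.5, and were higher in every E13.5 chondroblast library than in any trachea. The share of all genes that did so over these libraries was not counted. Hbb-bs, which adds to the adult beta chain, was found at 16.9, 2.15, 13.1, 18.8 and 35.9 CPM in E11.5 controls and at 12.6, 62.0, 17.01 and 5.41 CPM in Wnt5a mutants. In chondroblasts it was found at 1944 and 514 CPM in controls and at 283, 278 and 434 CPM in Notum mutants. Even the lowest of these lay above the highest trachea. Hbb-bt, its neighbour, had 41.7 to 311 CPM in tracheas (median 127 CPM), against 3075 and 785 CPM in control and 417, 385 and 499 CPM in mutant chondroblasts. The log2 ratio of Hbb-bs to Hbb-bt ran from -4.26 to -2.33 at E11.5 and from -0.66 to -0.20 in chondroblasts, without overlap. Alpha-like and beta-like counts were close to even at E11.5 (log2 ratio -0.92 to 0.52) and leaned to alpha in chondroblasts (0.52 to 1.70), or 0.22 to 0.74 when the Hbb-b1 and Hbb-b2 entries were added, which then overlapped the tracheal range of -0.96 to 0.45.

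Compared per kilobase of transcript, the order of mean levels in E11.5 controls was Hbb-y, Hba-a1, Hba-x, Hbb-bh1, Hba-a2, Hbb-bt, Alas2, Hbb-bs and Slc4a1, from 7979 ± 5497 to 11.3 ± 10.6 CPM per kb (SD, n = 5). The next values were 3483 ± 2181, 2934 ± 1996 and 2615 ± 1968 CPM per kb, with ranges over libraries that overlapped. Within a library, where both genes are read from the same RNA, Hbb-y was above Hba-a1 in 5 of 5, Hba-a1 above Hba-x in 4 of 5 and Hba-x above Hbb-bh1 in 4 of 5. Hbb-bt, at 237 ± 147 CPM per kb, was below Hba-a2, at 1087 ± 654, in 5 of 5 libraries, and Alas2 was above Hbb-bs in 3 of 5. In Notum mutant chondroblasts the order was Hba-a1, Hbb-y, Hba-a2, Hbb-bt, Hbb-bs, Hba-x, Alas2, Hbb-bh1 and Slc4a1. Hba-a1 at 6548 ± 1172 CPM per kb (SD, n = 3) was above Hbb-y at 4065 ± 632, in 3 of 3 libraries, and Hbb-bh1, at 29.4 ± 13.7 CPM per kb, was below Alas2, at 32.3 ± 2.17, in 2 of 3.

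Alas2 and Slc4a1 were counted in every trachea, chondroblast and muscle library, but not beside the globins of the later epithelium library. Alas2 was found at 16.8 to 122 CPM in tracheas (median 51.1 CPM), at 529 and 69.6 CPM in control chondroblasts and at 61.3, 66.0 and 70.1 CPM in mutants. The 3 mutants and the later control were nearly equal, and the earlier control was 7.60-fold above the later one. Slc4a1 ranged from 8.44 to 132 CPM in tracheas (median 43.1 CPM), and was found at 172 and 12.3 CPM in control and at 22.4, 13.98 and 37.9 CPM in mutant chondroblasts. Per globin count, Alas2 stayed within 0.00323 to 0.00888 over the 14 tracheal and chondroblast libraries, and was higher in the later muscle library at 0.0189. Slc4a1 per globin count varied more, from 0.000926 to 0.00772 over the tracheas.

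The later epithelium library carried 8841 globin counts with 0 counts of Alas2 and 0 of Slc4a1. The later muscle library carried 55132 globin counts with 1043 counts of Alas2 and 178 of Slc4a1. In the earlier libraries, epithelium had 4 counts of Alas2 and 0 of Slc4a1, and muscle 13 and 6. A count of 0 allows up to 3 counts, or 0.192 CPM in the later epithelium library, and this covers counting error only. Of the 16 genes of the red cell membrane and skeleton list, some of which other cells also express, 4 were above 0 in the later epithelium library (205 CPM summed) and 9 in the earlier one (127 CPM), and Kel and Epb42 were among those at 0 in both.

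To ask how the levels of single genes differed between the stages, control chondroblasts were tested against control tracheas (edgeR quasi-likelihood test, Benjamini-Hochberg adjustment over 14728 genes). The 4 adult globins rose and no embryonic globin passed the test, with 7.01% of all genes called higher and 5.45% called lower. The 2 groups did not overlap for Hba-a1, Hba-a2, Hbb-bs and Hbb-bt, which were higher as 14.3% of all genes were, nor for Hbb-bh1, which was lower as 21.8% were. Hbb-bs had a log2 fold change of 6.25 ± 0.85 (SE, adjusted p = 0.00355) and Hbb-bt of 3.61 ± 0.70 (adjusted p = 0.0144). Hba-a1 and Hba-a2 rose by 2.96 ± 0.77 and 2.98 ± 0.72 (adjusted p = 0.0395 and 0.0314). Counted as families, the adult alpha pair rose by 2.97 (adjusted p = 0.0377). The adult beta entries, with Hbb-b1 and Hbb-b2 added to Hbb-bs and Hbb-bt, rose by 4.35 (adjusted p = 0.00750). Of those that missed the threshold, Hba-x had -0.26 ± 1.12, Hbb-y 1.39 ± 1.09 and Hbb-bh1 -3.55 ± 1.38 (adjusted p = 0.901, 0.424 and 0.124), and Alas2 2.40 ± 0.77 and Slc4a1 0.97 ± 1.02 (adjusted p = 0.0729 and 0.556). For comparison, the median over all genes tested was -0.05 and that over the 9 was 2.40. DESeq2 called 5, the adult globins higher and Hbb-bh1 lower (adjusted p = 0.0297), where it called 23.7% of all genes.

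These calls rest on few libraries. Without the earlier chondroblast library, 3 of the 9 were called, against 22.4% of all genes. Hbb-bs was then at 4.86, Hba-x at -4.79 and Hbb-bh1 at -7.73, while Hba-a1 was at 0.86, Hba-a2 at 1.07 and Hbb-bt at 2.18 without a call. Without the later one, 5 were called against 5.51% of all genes, the 4 adult globins and Alas2 at 3.23. Without E11.5 control A, C or D, only the 2 adult beta genes were called, where 7.15%, 8.86% and 6.06% of all genes were called. Hba-a1 and Hba-a2 then had adjusted p-values of 0.0649 to 0.0902 with log2 fold changes of 2.83 to 3.12. When the entry with the highest total stood for each symbol, Hba-a1 and Hba-a2 had 2.53 and 2.55 (adjusted p = 0.0777 and 0.0629). In that fit 2 of the 9 were called, against 9.49% of all genes.

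**Figure D4:**
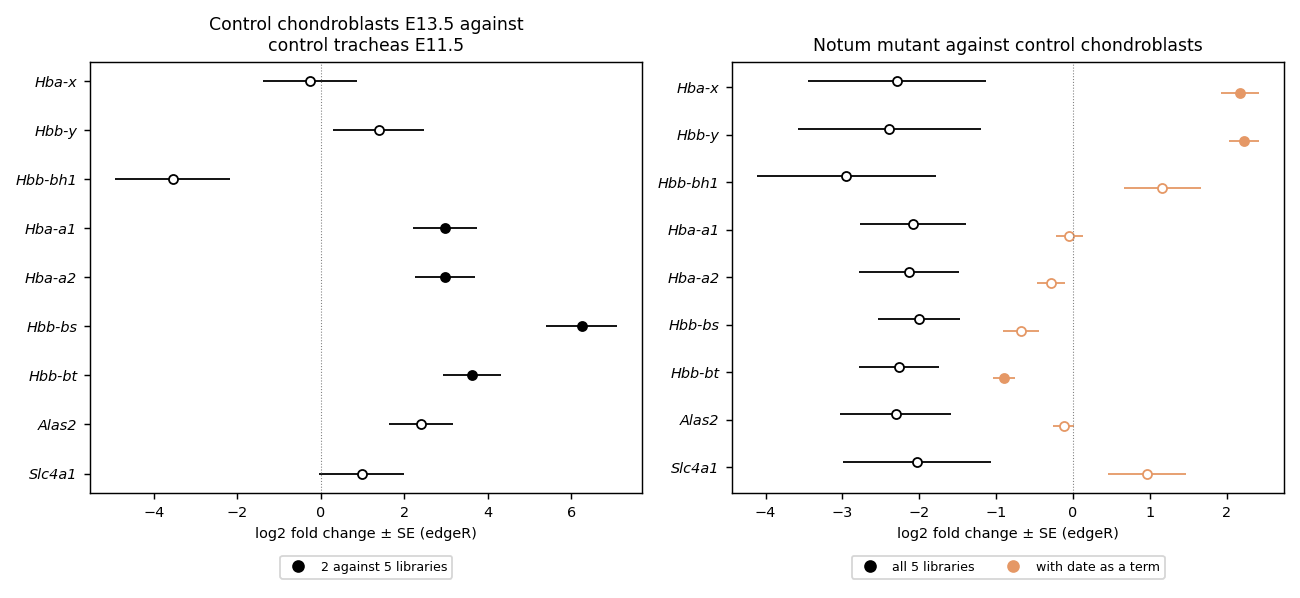
Log2 fold changes with their standard errors (edgeR) for the 9 genes, of control E13.5 chondroblasts against control E11.5 tracheas (left) and of Notum mutant against control chondroblasts (right), the latter without and with the date as a term. Filled symbols passed an adjusted p of 0.05 and open symbols did not. On the left the 4 adult globins are filled; on the right Hba-x, Hbb-y, Hbb-bh1 and Slc4a1 change sign between the fits.

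Other red cell genes were called between the stages at shares to be read against the 12.5% of all genes called (7.01% higher and 5.45% lower). None of the 15 tested genes of the membrane and skeleton list was called, with 6 positive and 9 negative values and a median of -0.32. Of 11 erythroid transcription factors, Sox6 rose by 1.47 (adjusted p = 0.0114), and it is also a cartilage gene; the list median was 0.00. Of 8 enzymes of heme synthesis used by every cell, Ppox rose by 1.06 (adjusted p = 0.0191). None of 6 iron uptake genes and none of 11 late red cell genes was called; Tfrc, the transferrin receptor, was at -0.59, Prdx2 at 0.05 and Car2 at -0.02. Other cell types differed between these groups: 8 endothelial markers summed to 210 to 508 CPM in tracheas and 77.0 to 135 CPM in chondroblasts and 5 of them were called lower, 8 white cell markers summed to 62.4 to 189 against 294 to 840 CPM with 1 called higher, and 6 platelet markers to 19.9 to 56.3 against 1.63 to 43.4 CPM. Heart muscle markers summed to 29.4 to 335 CPM in tracheas and 4.38 and 9.32 CPM in chondroblasts, with 2 of 4 tested called lower. Pecam1 and Cdh5 were above 0 in every library of both groups, and their part in the result was not tested.

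Loss of Wnt5a in the mesenchyme was compared at E11.5 to see whether the mutant tracheas carried other amounts or kinds of globin RNA. None of the 9 genes passed the test, with 0.0136% of 14663 genes called (edgeR), none was under an unadjusted p of 0.05, as 4.58% of all genes were, and DESeq2 called none where it called 0.273% of all genes. Log2 fold changes ran from -0.73 ± 0.52 for Hbb-y to 0.41 ± 0.74 for Hbb-bs, and 8 of 9 were negative, with a median of -0.29 against -0.02 for all genes tested. Controls and mutants overlapped for each of the 9 (1.45% of all genes did not overlap). The spread among the controls was wide, from 3338 CPM of globins in control B to 22202 CPM in control E, and the mutants, at 5144 to 13280 CPM, lay inside it. The embryonic to adult log2 ratio was 1.43 ± 0.41 in controls (SD, n = 5) and 0.85 to 1.53 in mutants, again with overlap.

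Column names of the tracheal libraries carried numbers, and 4 numbers were shared by a control and a mutant. Within such pairs the mutant was higher in 3 of 4 for Hba-x, Hba-a2, Hbb-bh1, Hbb-bs, Hbb-bt, Alas2 and Slc4a1, and in 2 of 4 for Hba-a1 and Hbb-y. Number 17 was the exception for most genes: its control had 18882 and its mutant 10076 CPM of globins. Number 7 held the lowest control and the lowest mutant, at 3338 and 5144 CPM. With the number as a term in the fit, values for Hba-x, Hba-a1, Hba-a2, Hbb-bt and Alas2 turned to 0.15 to 0.28 and none was called. The mutant's embryonic to adult log2 ratio was below that of its control by 0.31, 0.96 and 0.06 for numbers 7, 13 and 17 (differences -0.31, -0.96 and -0.06) and above it by 0.37 for number 18.

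**Figure D5:**
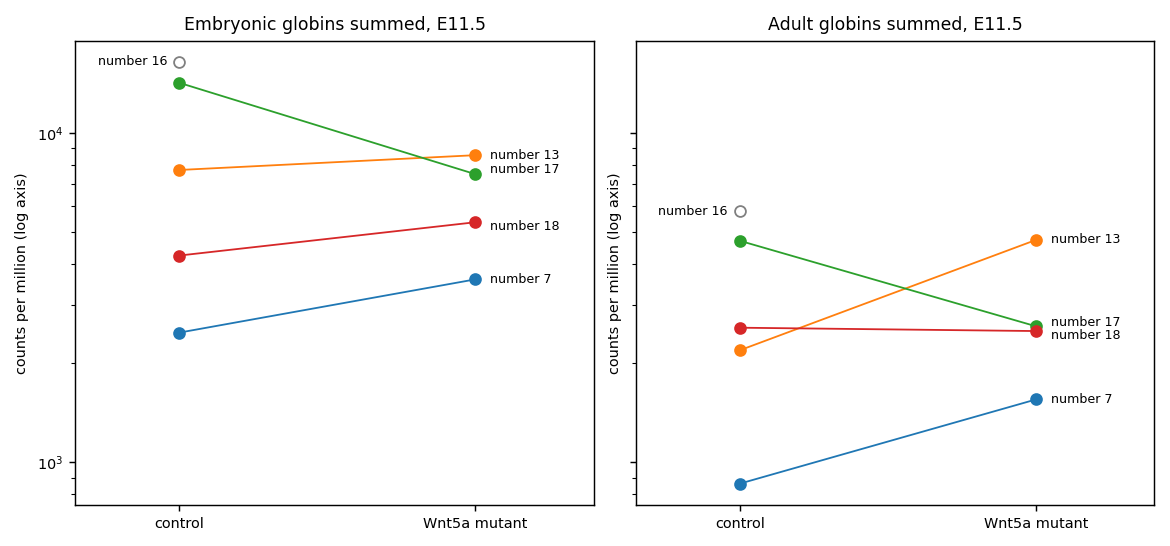
Summed embryonic (left) and adult (right) globins in E11.5 tracheas, in CPM on a log axis, with lines joining a control and a Wnt5a mutant whose column names share a number. The open circle is the control of number 16, which has no mutant. In embryonic globins 3 of 4 lines rise and number 17 falls, and in adult globins 2 rise.

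Other red cell lists gave no call either in Wnt5a mutants. The median of 15 membrane and skeleton genes was -0.24, of 11 transcription factors 0.05 and of 11 late red cell genes -0.13. Endothelial markers summed to 210 to 508 CPM in controls and 266 to 650 CPM in mutants, and platelet markers to 19.9 to 56.3 and 36.9 to 147 CPM, with a median log2 fold change of 0.74 over the 5 platelet genes tested and none called.

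Loss of Notum was compared in the double-negative sort. All 9 genes were lower in the mutants, by 2.01 to 2.95 on the log2 scale, but none passed the test, and 0% of 14120 genes did (edgeR). Adjusted p-values ran from 0.256 to 0.469. At an unadjusted p under 0.05 with a fold over 1.5, 6 were lower (Hba-a1, Hba-a2, Hbb-bh1, Hbb-bs, Hbb-bt and Alas2) against 2.9% of all genes, and DESeq2 called 1, Hbb-bt (adjusted p = 0.0264), where it called 3.73% of all genes. The groups were apart for 3, Hba-a2, Hbb-bs and Hbb-bt, against 9.07% of all genes lower without overlap. The median over the 9 was -2.27 and over all genes tested 0.02.

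The 2 control libraries decided these values. Hba-x was 40.5-fold and Hbb-y 45.1-fold higher in the earlier than in the later control, Hbb-bh1 31.5-fold, Slc4a1 13.99-fold, Alas2 7.60-fold, Hba-a1 6.75-fold and Hbb-bs 3.78-fold. Without the earlier control, which leaves only libraries of the later date, Hba-x and Hbb-y were higher in the mutants by 2.18 and 2.23 (adjusted p = 0.00735 and 0.00424), and Hbb-bt was at -0.89 and called, where 17.5% of all genes were called. Without the later control, all 9 were called lower, from -2.71 for Hbb-bs to -3.93 for Hbb-bh1, where 0.737% of all genes were called. A term for the date gave Hba-x 2.17 and Hbb-y 2.23 (adjusted p = 0.00671 and 0.00349), Hbb-bt -0.90 (adjusted p = 0.0124) and 3 calls among the 9, where 18.4% of all genes were called. In these later-date fits 1 control library was compared with 3 mutants and was assumed to vary like them. Within the later date, summed embryonic globins were 4.76-fold higher in the mean of the mutants than in the control, while summed adult globins were 0.895 of it.

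No gene of the other red cell lists was called in the comparison of all 5 libraries, and the lists differed in sign. In the membrane and skeleton list 13 of 14 tested genes were negative, with a median of -1.39, and Epb41 was at -0.23 and Add2 at -0.11. Hbq1b, of the theta globins, was at -2.20. Erythroid transcription factors had 6 positive and 4 negative values and a median of 0.47, with Sox6 at 1.04, Ldb1 at 0.66 and Nfe2 at -0.06. Heme enzymes of every cell had a median of -0.20, iron uptake genes, 3 positive and 3 negative, -0.13, with Tfrc at -0.72, and late red cell genes -0.56, with Car2 at -1.07, Fam210b at 0.15 and Prdx2 at -0.15. White cell markers summed to 294 and 840 CPM in controls and 382 to 562 CPM in mutants with a median of 0.67, platelet markers to 1.63 and 43.4 against 15.8 to 28.8 CPM, and endothelial markers to 77.0 and 135 against 76.7 to 115 CPM. Of 5 heart muscle markers, which summed to 4.38 and 9.32 CPM in controls and 15.8 to 79.4 CPM in mutants, all 4 tested were positive with a median of 2.55, and none was called. Of the defining platelet markers only Pf4 was above 0 in the later control. Their part in the globin values was not tested.

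Chondroblasts carried more globin than the sorted epithelium and muscle, the comparisons in which 1.72% and 0% of 13687 genes were called higher. Against epithelium all 9 genes were higher without overlap, which 25.7% of all genes were. The log2 fold changes ran from 5.69 for Hbb-bs to 13.7 for Slc4a1, and none passed the test (edgeR, lowest adjusted p = 0.0747 for Hbb-bh1), though 6 did at an unadjusted p under 0.05 with a fold over 1.5, as 9.09% of all genes did, and DESeq2 called 7 where it called 11.4% of all genes. Slc4a1, at 0 counts in both epithelium libraries, was at least 63.9-fold higher in the lowest chondroblast control, against the floor of 3 counts per library. Against muscle all 9 were again higher without overlap (20.2% of all genes), from 3.15 for Hbb-bs to 8.69 for Hbb-y, with none called by edgeR and 3 at an unadjusted p under 0.05 with a fold over 1.5 (2.44% of all genes). DESeq2 called Hba-x, Hbb-y and Hbb-bh1 there, 3 of the 9 against 1.86% of all genes. Hbb-bh1, Hbb-bs, Hbb-bt, Alas2 and Slc4a1 had under 1 CPM in at least 1 library of epithelium and of muscle. These genes therefore passed the level filter through chondroblasts alone. Their higher level there was partly set by that filter and adds no support. Without the later chondroblast library, Hbb-bh1 was at 9.32 against epithelium and 9.26 against muscle. Without either muscle library, Alas2 was at 11.4 against epithelium. Each of these fits left 1 library in a group, so only the fold changes are given.

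By date, the gap was of a very different size. On the earlier date the globin sum in chondroblasts was 6103-fold that in muscle and 4301-fold that in epithelium, and on the later date 2.34-fold and 13.8-fold. Within the later date, embryonic globins were 9.13-fold and adult globins 2.20-fold higher in chondroblasts than in muscle, while Alas2 was 1.10-fold and Slc4a1 1.14-fold higher. In white cell markers, the later muscle library had 388 CPM and the earlier 1.31 CPM; the earlier epithelium library had 297 CPM and the later 0.256 CPM with 1 of 8 markers above 0. Globins and white cell markers were thus high in the same library in muscle and in different libraries in epithelium, and their part in the globin levels was not tested. Of the other red cell lists, 6 of 8 tested membrane and skeleton genes were higher against epithelium (median 4.31) and 7 of 8 against muscle (median 2.32), and none was called. Late red cell genes had medians of 1.31 and 1.56, with Fam210b lower than in epithelium (-2.08, adjusted p = 0.0350) as the single call. Erythroid factors had medians of 2.38 and 0.70, and endothelial markers 5.76 and 1.32, against 0.02 and 0.00 over all genes. Only 8 of 16 membrane and skeleton genes and 5 of 11 erythroid factors passed the level filter. A gene that passed it through chondroblasts alone tends to be higher there by construction, so these signs and medians are a description only.

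Genes with a pattern most like the globins were ranked over the 18 libraries by Pearson's r of log2(CPM + 1), as a description. Points share their libraries, depth and the wide range between sorted cells and whole tissue. For the sum of the embryonic globins, the first 10 included Kel (0.903), Hbq1b (0.888), Rhd (0.888), Pdzk1ip1 (0.885), Epb42 (0.875), Ube2l6 (0.865), Trim10 (0.862), Zfp933 (0.859) and Bcas1 (0.856). For the adult sum they were Hbb-b2 (0.979), whose counts equal those of Hbb-bt, then Dgat2 (0.862), Plcb2 (0.844), Dusp26 (0.842), Gap43 (0.838), Cmtm5 (0.833), Gsdmd (0.832), Car12 (0.830), Abtb1 (0.828) and Trim10 (0.828). Genes of the fixed red cell lists made up 7 of the first 10 for the embryonic and 1 of 10 for the adult sum.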

How the data were processed

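Libraries were made from poly(A) RNA with SMART-Seq v4 and Nextera XT, without molecular identifiers. The authors deposited a table of expected counts, estimated counts per transcript entry that need not be whole (56% of values were fractional). The submitters' processing notes name Partek, limma and mm10, with no versions; the counting tool is not given in the sources used here. Of 22 value columns, 18 matched a group and 4 were not used. The labels list more sorted samples than the table has columns for them (3 per control population and 4 Notum mutants), so these columns were assigned to groups only.

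The 47248 entries were summed to 26202 symbols and rounded. The edgeR 4.0.16 quasi-likelihood test (TMM; genes with at least 1 CPM in over 50% of the libraries of a group) was run on all genes in R 4.3.3, with DESeq2 1.42.0 as an alternative, and genes with an adjusted p under 0.05 were called. Ratios used counts plus 0.5 and an exact permutation test over libraries (scipy 1.17.1). Scripts were tested on simulated data. Members and lists were chosen with earlier results of these data known. Named genes were the 9, up to 3 genes of highest mean CPM per list, those called, and the 10 most alike; Kel, Epb42, Ppox, Pecam1, Cdh5 and Pf4 were added after their values were seen. Some genes that this rule names are not reported here. Where nothing says that samples came from separate litters, p-values measure only the spread between samples. E11.5 libraries sharing a column number deviated together in all 4 pairs (correlations 0.13 to 0.62). Control and mutant libraries with different numbers had correlations of -0.38 to 0.26, which overlap these. The number was therefore taken only as a possible pairing.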

Additional observations from a re-analysis of the deposited data

Results flagged for a closer look

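E11.5 control C had a log2 embryonic to adult globin ratio of 0.73, below the 1.503 to 1.82 of the other 4 controls. Its gap to the nearest control was 0.712 of the whole range of the 5, just above Dixon's 95% limit of 0.71. It was the single value marked among 26 groups tested in this way, and chance marks about 1 in 20. Control C had 2563 CPM of adult and 4241 CPM of embryonic globins, and mutant C of the same column number (18) had a ratio of 1.10.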

How the results depend on the processing

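The 4 ratio differences kept their direction under all 8 alternatives (-3.51 to -2.61, -4.35 to -3.47, -4.62 to -3.73 and -5.30 to -4.64 on the log2 scale), but with controls only (-3.51, -4.35, -4.62 and -4.64) the exact p was 0.0952, the smallest possible with so few libraries. Of 9 genes, the comparison with epithelium gave 0 calls, but 7 with DESeq2, 9 with no filter, 3 with more than 3 counts in total and 0 to 1 with a library left out; that with muscle gave 0, but 3, 9, 1 and 0 to 1. With no filter the prior degrees of freedom were infinite, so the spread of a single gene did not enter that test. The Notum comparison gave 0 calls, 1 with DESeq2, 3 with the date term and 0 to 9 with a library left out, and the stage comparison 4, 2 with the highest entry per symbol and 2 to 5 with a library left out. Over all genes, calls went from 2 to 40 with DESeq2 and 9 with no filter for Wnt5a, from 0 to 526 (DESeq2), 2604 (date term) and 42 (no filter) for Notum, from 375 to 1554 (DESeq2), 1463 (no filter) and 639 (more than 3 counts) for epithelium, from 18 to 254, 305 and 56 for muscle, and from 1835 to 3493 (DESeq2) for the stages. Beyond fewer libraries or another filter by construction, the cause was not tested.

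Signs turned as follows, on the log2 scale. With the replicate block by column number in the Wnt5a comparison, Hba-x was at 0.15, Hba-a1 0.23, Hba-a2 0.27, Hbb-bt 0.21 and Alas2 0.28, none called (adjusted p 0.957 to 0.970), and the block changed no call among the 9 (1 gene of all was called). Alas2 was at 0.0052 with no filter and 0.0048 with more than 3 counts. Leaving out 1 library gave -0.61 to 0.086 for Hba-a1, -0.59 to 0.15 for Hba-a2, -0.64 to 0.90 for Hbb-bs, -0.76 to 0.20 for Hbb-bt, -0.30 to 0.34 for Alas2 and -0.82 to 0.33 for Slc4a1. With the date term in the Notum comparison, Hba-x was at 2.17, Hbb-y 2.23, Hbb-bh1 1.16 and Slc4a1 0.96, and leaving out 1 library gave -3.28 to 2.18, -3.38 to 2.23, -3.93 to 1.17 and -2.95 to 0.97. In the stage comparison it gave -4.79 to 0.70 for Hba-x, -3.30 to 2.35 for Hbb-y and -2.08 to 1.87 for Slc4a1. The sorted control populations were paired by the date in their column names, since these do not hold the labels' numbering: the replicate block by date gave 0 calls among the 9 in both comparisons. With 2 libraries per sorted control, the earlier chondroblast library decided the sign of 4 of the 9 Notum values.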
